A study of Rattus norvegicus with 91 samples.

Results

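Neuropeptide precursor genes and neuropeptide receptor genes outside the opioid, corticotropin-releasing factor and neuropeptide Y systems were described in the ventral tegmental area of rats bred for alcohol drinking. The set held 37 genes, 17 ligands and 20 receptors, of 14217 genes that had a probe set naming 1 gene. The rule lists genes by name and uses no measured value, although the list was drawn up with earlier results of these data known. All 51 probe sets whose annotation gave exactly 1 symbol equal to a member were taken. Each of 36 members had at least 1 such probe set, and Cckar, a cholecystokinin receptor, was not analysed here because no single-gene probe set named it.

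The study measured gene expression on 91 Affymetrix arrays from 10 rat lines that form 5 pairs, each with a line selected for high and a line selected for low alcohol consumption. The high-drinking lines were HAD1 (8 arrays), HAD2 (8), P (9), AA (10) and sP (8), and their low-drinking partners were LAD1 (10), LAD2 (9), NP (10), ANA (10) and sNP (9). Titles name an animal for each array, so replicates were taken as animals. The labels name no treatment, and the sources used here do not give age, sex or any exposure to alcohol. Each group is a single bred line, so what selection fixed and what breeding fixed by chance cannot be told apart within a pair. In tissue, fewer cells of a type and less RNA per cell cannot be told apart either.

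Neuropeptides are cut from larger precursor proteins, packed into dense-core vesicles and released beside the classical transmitters of the same neuron. Most act through G protein-coupled receptors and so change the excitability of a cell over a longer time than a fast transmitter does. Dopamine neurons of this region can make cholecystokinin and neurotensin themselves, and they are reached by peptide fibres from elsewhere, such as orexin and melanin-concentrating hormone fibres from the lateral hypothalamus. A peptide can therefore act in the ventral tegmental area although its gene is transcribed in another region, while the receptor genes are read where the receiving cells lie.

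Values were log2 signals, so a difference of 1 is a doubling. Of the 36 measured members, 27 reached the floor for testing, a line mean of 7.02 (the 40th percentile of all values) in at least 1 of the 10 lines, and 19 reached it in all 10. The tested members were 12 ligands and 15 receptors. The 9 below the floor were the ligands Tac3, Hcrt, Oxt, Trh and Calcb and the receptors Galr1, Vipr1, Oxtr and Avpr1a. Signals of the orexin precursor gene Hcrt ran from 5.47 to 6.33 over all 91 arrays, of the oxytocin gene Oxt from 5.50 to 6.40, of the oxytocin receptor gene Oxtr from 4.27 to 5.19 and of the thyrotropin-releasing hormone gene Trh from 5.00 to 6.37, so no array reached the floor for any of these. Single arrays did reach it for the vasopressin receptor gene Avpr1a (12 arrays), the VIP receptor gene Vipr1 (8) and the calcitonin gene-related peptide gene Calcb (7). Tac3 reached it too, at 11.59 in array P 10. The melanocortin receptor gene Mc4r reached the floor only in P and NP, and Calca, on the probe set tested, only in HAD1, LAD1, HAD2, LAD2 and AA. Because a member enters the test through the line in which it is high, these counts describe where the genes could be measured and nothing more.

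Few members were called, in a share near that of all genes. Calls were made with limma where the p adjusted by Benjamini-Hochberg over the 11082 genes tested was under 0.05. The fit shared 1 estimate of spread per gene over all lines. Standard errors and p values of a gene are therefore too small in a pair whose animals vary more than the rest. They are too large in a pair whose animals vary less. In AA/ANA 1 of the 27 tested members was called (3.7%), where 2.94% of all genes were, and in HAD2/LAD2 1 of 27, where 5.46% were. No member was called by limma in HAD1/LAD1 (3.85% of all genes), P/NP (0%) or sP/sNP (0%), and the members with an unadjusted p under 0.05 numbered 2, 3 and 0 there, against 12.2%, 6.4% and 1.12% of all genes. The average over the 5 pairs had 0 members called (1.4% of all genes) and 2 at an unadjusted p under 0.05, Sstr2 and Calca, where 10.1% of all genes were. Over the 135 member comparisons, 2 members were called, Calca and Sstr3, and both were higher in the high-drinking line. Of all genes tested, 1.49% were called higher in AA than in ANA and 3.36% higher in HAD2 than in LAD2. For all 27 members the arrays overlapped between the lines of every pair, and the genes whose arrays did not overlap were 1.56% of all genes in HAD2/LAD2, 0.189% in HAD1/LAD1, 0.0271% in AA/ANA and 0 in the other pairs.

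**Figure D1:**
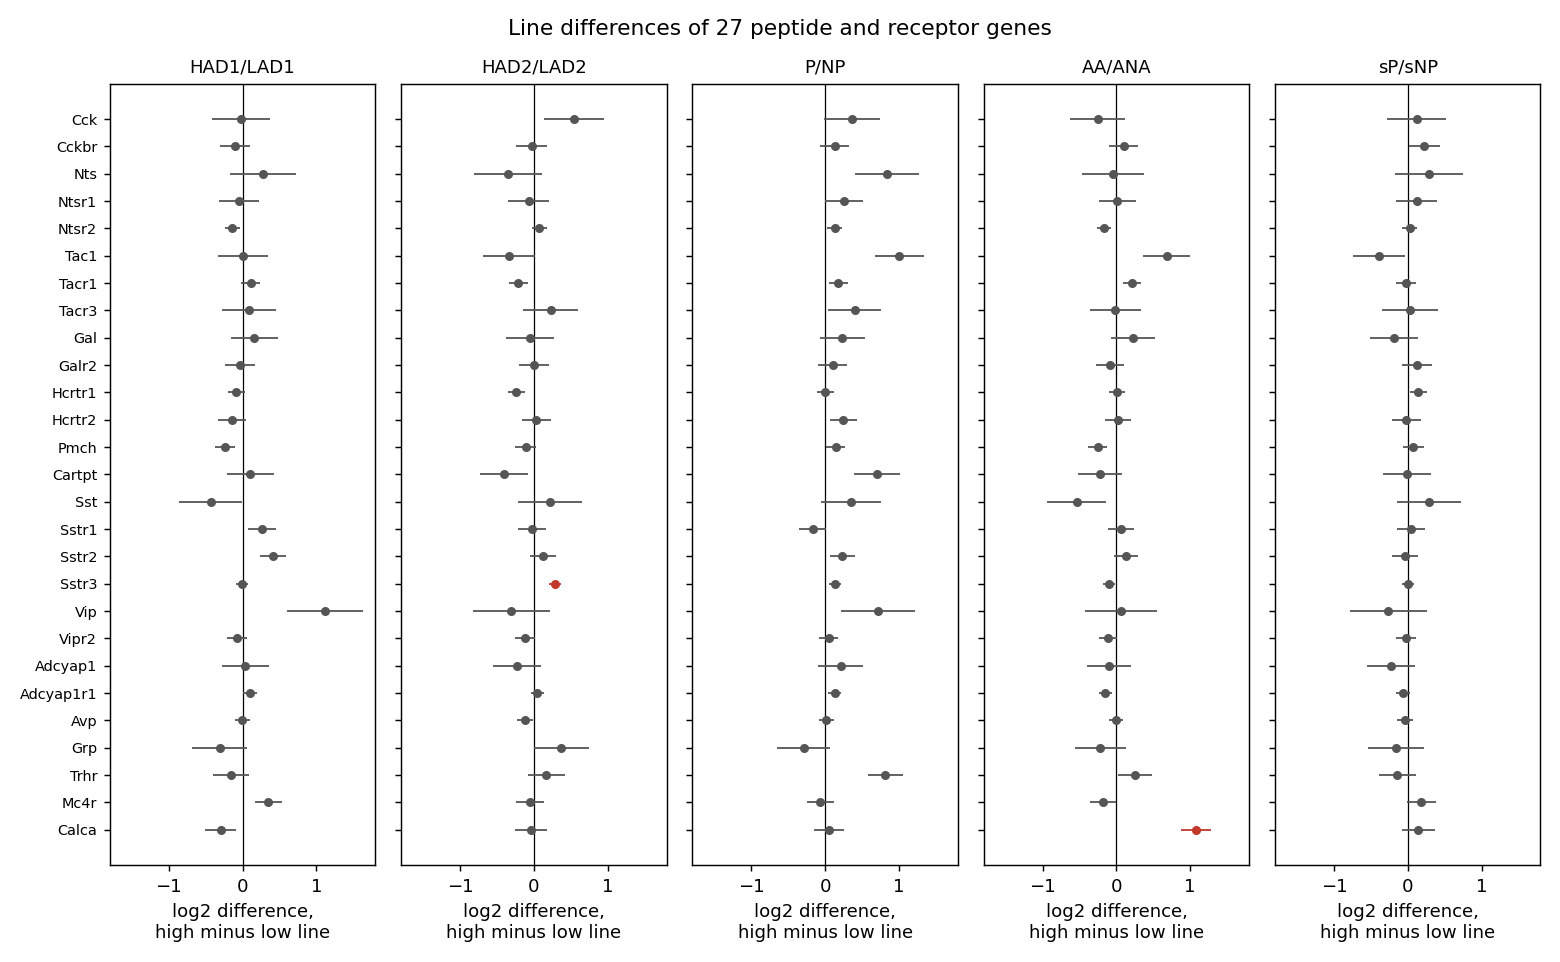
Difference between the high- and the low-drinking line (horizontal axis, log2 units) for the 27 tested members in each of the 5 pairs. Points are differences of line means, bars are 1 standard error of the limma fit, and the 2 comparisons called, Sstr3 in HAD2/LAD2 and Calca in AA/ANA, are in red.

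Calca showed the clearest line difference. The gene encodes calcitonin and, by alternative splicing, calcitonin gene-related peptide (CGRP), a peptide of sensory and motor neurons that acts through a receptor made of Calcrl and the accessory protein Ramp1. AA animals had signals of 6.38 to 8.62 (median 8.17, n = 10) and ANA animals of 5.83 to 7.34 (median 6.76, n = 10). In 7 of the 10 AA arrays Calca lay above every ANA array, from 7.95 upward. The other 3 AA arrays, at 6.38, 6.40 and 6.74, lay within the ANA range and below the floor, and 2 ANA arrays reached the floor. The AA mean was 1.08 ± 0.20 (standard error) above the ANA mean, 7.78 against 6.70, with an adjusted p of 0.000171 in limma. Standard deviations of Calca were 0.914 in AA and 0.448 in ANA, against 0.105 to 0.526 in the other lines. The standard error and p value from the shared spread are thus too small for Calca in AA/ANA. Because the ANA mean lay below the floor, no fold is given for Calca.

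In the other pairs the lines were closer. The Calca difference was -0.30 ± 0.21 in HAD1/LAD1 (adjusted p = 0.687 in limma), -0.04 ± 0.22 in HAD2/LAD2, 0.05 ± 0.21 in P/NP and 0.14 ± 0.22 in sP/sNP. A moderated F test that the 5 differences are equal gave F = 6.59 and an adjusted p of 0.00378 for Calca, the 1 member called in that test, where 6.33% of all genes were. HAD1 animals ranged from 7.63 to 8.0 and LAD1 animals from 7.46 to 8.92, with the wider spread in the low-drinking line. In P, NP, sP and sNP the line means of Calca were below the floor, so little can be read from those 2 pairs.

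Promoter sequences of both called members are printed, and they show the DNA upstream of each start. Each run gives the 250 bases before the annotated start in RefSeq's GRCr8 assembly, read 5′ to 3′ on the gene's strand. Calca lies on the minus strand at chr1:178317530-178317779 and Sstr3 on the minus strand at chr7:111980251-111980500. Capitals mark TGACG, the core of the cyclic AMP response element, searched on both strands.
Calca: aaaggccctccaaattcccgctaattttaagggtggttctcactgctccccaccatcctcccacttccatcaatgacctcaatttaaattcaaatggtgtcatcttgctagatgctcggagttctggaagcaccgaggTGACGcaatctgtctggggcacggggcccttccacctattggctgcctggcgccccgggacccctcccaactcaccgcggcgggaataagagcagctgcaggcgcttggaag
Sstr3: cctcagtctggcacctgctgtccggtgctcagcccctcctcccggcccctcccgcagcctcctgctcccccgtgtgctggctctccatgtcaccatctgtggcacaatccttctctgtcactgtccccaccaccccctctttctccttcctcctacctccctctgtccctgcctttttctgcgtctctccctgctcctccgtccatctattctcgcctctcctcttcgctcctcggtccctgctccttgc

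The Calca run holds 1 TGACG, which begins 112 bases before the start, and the Sstr3 run holds none. This motif was found in 18 of the 31 members with a promoter in the table (58.1%) and in 19% of 27457 rat promoters of the same length. Members with the motif included the peptide genes Vip, Tac1, Gal, Nts, Cartpt, Grp, Avp and Trh. A TATAAA, the TATA box core, was found in neither run, in 8 of the 31 members (25.8%), among them Vip, Gal, Grp and Adcyap1, and in 13.1% of all promoters. GC content was 56.4% in the Calca run and 63.2% in the Sstr3 run. These matches describe letters in a window and say nothing of binding in these animals.

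Both further probe sets of Calca gave smaller differences than the one tested. On the second, AA animals ran from 6.65 to 7.87 (median 7.38) and ANA animals from 6.85 to 7.33 (median 7.13), and the difference was 0.16 ± 0.08 with an unadjusted p of 0.0543 and an adjusted p of 0.403 in limma over all 15152 single-gene probe sets tested. The 3 AA arrays low on the tested probe set were also the 3 lowest AA arrays here, at 6.65 (AA 19), 6.71 (AA 1) and 6.99 (AA 5). On the third both lines were below the floor, at 5.39 and 5.36. Averaging the probe sets gave a difference of 0.42 with an adjusted p of 0.00185 in limma. That average includes the tested probe set, whose difference was the largest, so it is not a separate check on the other probe sets. Which Calca transcript each probe set reads was not analysed here.

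**Figure D2:**
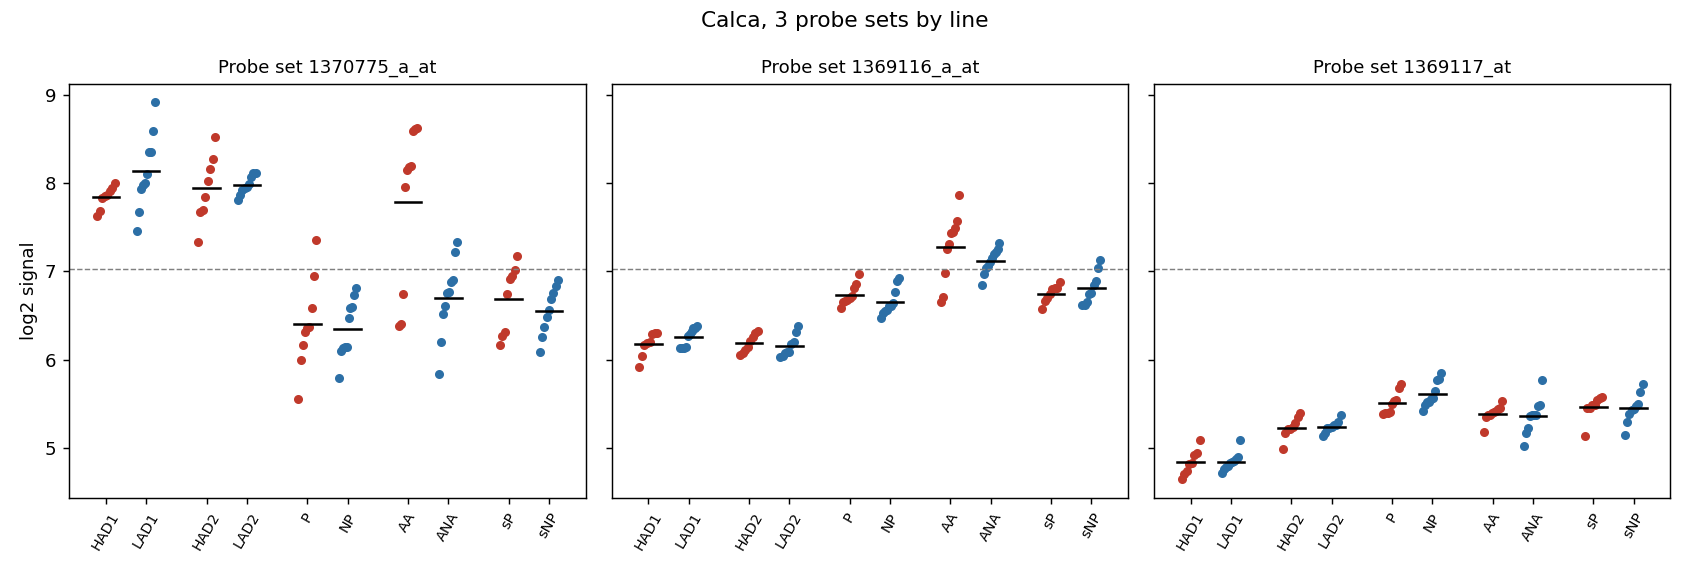
Calca log2 signal (vertical axis) on each array by line (horizontal axis), for its 3 probe sets. Points are animals, red for high- and blue for low-drinking lines, black bars are line means and the dashed line is the floor of 7.02. On the tested probe set (left) 7 of 10 AA animals sit above all ANA animals, and on the second (middle) the lines overlap.

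Array distributions bear on this pair. Clustering of the arrays' value distributions, cut at 5 sets, placed AA 1 with the P and NP arrays and AA 19 and ANA 20 with the sP and sNP arrays, outside the set of the other 17 AA and ANA arrays. AA 1 and AA 19 are 2 of the 3 low AA arrays for Calca, at 6.40 and 6.38, and ANA 20 was at 6.20. Without these 3 arrays, the remaining 8 AA animals ran from 6.74 to 8.62 (median 8.19) and the 9 ANA animals from 5.83 to 7.34 (median 6.77), and the Calca difference was 1.4 ± 0.19 with an adjusted p of 5.92e-08. With the AA/ANA pair fitted alone, so that the other lines did not enter the estimate of spread, the difference of 1.08 had a standard error of 0.30 and an adjusted p of 0.0739. With the pair fitted alone and those 3 arrays left out, an alternative chosen after seeing the data, it was 1.4 ± 0.23 with an adjusted p of 0.00176. The 3′-minus-5′ signal of Gapdh, a measure of RNA integrity, was 0.501 ± 0.145 (SD) in AA and 0.567 ± 0.045 in ANA.

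Motor nuclei near the ventral tegmental area also express Calca, so markers of cholinergic and oculomotor neurons were set beside it. None of the 5 such markers measured had a line mean at the floor in AA or ANA. The choline transporter gene Slc5a7 had line means of 6.36 in AA and 7.01 in ANA, and the choline acetyltransferase gene Chat of 5.59 and 5.63. The mean of the 5 markers ran from 5.30 to 5.68 over AA animals and from 5.32 to 5.78 over ANA animals. Among dopamine neuron markers, Th, which encodes tyrosine hydroxylase, differed by -0.14 ± 0.41 (adjusted p = 0.952).

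The parts of the CGRP receptor were measured too. Ramp1 was 0.36 ± 0.11 higher in AA than in ANA, 10.22 against 9.87, with an adjusted p of 0.0499, just inside the threshold. That call was lost in 20 of 33 alternatives, with adjusted p values up to 0.110, and with the pair fitted alone and the 3 outlying arrays left out the adjusted p was 0.00305. Calcrl, the receptor itself, had line means of 5.52 and 5.60, below the floor. Ramp2 and Ramp3, which direct Calcrl toward adrenomedullin, differed by -0.07 ± 0.08 and -0.06 ± 0.18 in AA/ANA and were not called. Line means of Ramp3, 6.91 in AA and 6.97 in ANA, lay below the floor.

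Sstr3 was the member called in HAD2/LAD2. It encodes a somatostatin receptor that couples to inhibitory G proteins and is placed on the primary cilia of neurons. Signals ran from 8.04 to 8.46 (median 8.21, n = 8) in HAD2 and from 7.52 to 8.24 (median 7.94, n = 9) in LAD2. The ranges overlapped, with 4 HAD2 animals above every LAD2 animal and 5 LAD2 animals below every HAD2 animal. The difference was 0.29 ± 0.08, 8.22 against 7.93, or 1.2-fold, with an adjusted p of 0.0199 in limma.

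Small changes to the fit ended the Sstr3 call. With the pair fitted alone the adjusted p was 0.0608. Leaving out single animals gave adjusted p values of 0.0647 (HAD2 5), 0.0510 (HAD2 6), 0.0803 (LAD2 17) and 0.0505 (LAD2 18), with differences between 0.24 and 0.33 over all single animals left out. The Sstr3 difference was -0.0093 ± 0.08 in HAD1/LAD1, 0.14 ± 0.08 in P/NP, -0.10 ± 0.08 in AA/ANA and 0.0049 ± 0.08 in sP/sNP, and the F test for dependence on the pair gave an adjusted p of 0.112. The Sstr3 line means of AA, sP and sNP lay below the floor. Without P 10 and NP 8 the P/NP value was 0.19 ± 0.08. The Gapdh 3′-minus-5′ signal, 3.42 ± 0.31 (SD) in HAD2 and 3.58 ± 0.38 in LAD2, was far above 0 in both lines.

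**Figure D3:**
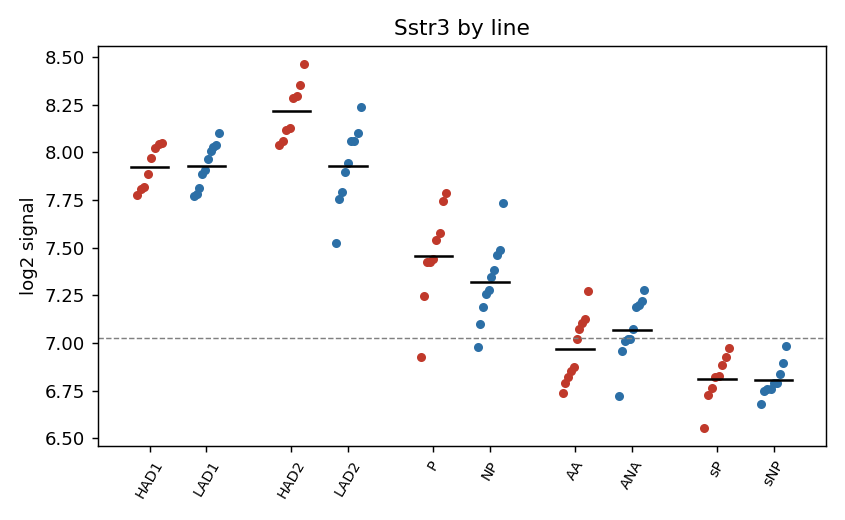
Sstr3 log2 signal (vertical axis) on each array by line (horizontal axis). Points are animals, red for high- and blue for low-drinking lines, bars are line means and the dashed line is the floor of 7.02. HAD2 animals lie between 8.04 and 8.46 and LAD2 animals between 7.52 and 8.24.

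The other somatostatin genes were not called in any pair. Sstr2, an inhibitory receptor of the neuron surface, ran from 7.57 to 8.14 (median 7.81) in HAD1 and from 7.09 to 8.01 (median 7.38) in LAD1. That is a difference of 0.41 ± 0.17 with an unadjusted p of 0.0195 and an adjusted p of 0.243 in limma. The Sstr2 difference passed the threshold with the HAD1/LAD1 pair fitted alone and with array weights (adjusted p = 0.0128). In P/NP, where the NP mean was below the floor, it was 0.23 ± 0.17 with all arrays and -0.08 ± 0.14 without P 10 and NP 8. Somatostatin itself, Sst, a peptide of inhibitory interneurons, had differences from -0.54 ± 0.40 in AA/ANA to 0.35 ± 0.41 in P/NP. Without P 10 and NP 8 the P/NP value was -0.20 ± 0.40. Sstr1 differed by at most 0.27 ± 0.19, in HAD1/LAD1.

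Cholecystokinin and neurotensin, the peptides that dopamine neurons make, had line means well above the floor in every line, at least 10.99 for Cck and 9.28 for Nts. Single Nts signals did fall below the floor, as in NP 8 at 5.07. Cck ran from 13.44 to 14.25 (median 13.98) in AA and from 13.95 to 14.33 (median 14.20) in ANA, and from 13.94 to 14.56 (median 14.20) in sP and 13.82 to 14.37 (median 14.11) in sNP. In HAD2 it ran from 10.54 to 12.07 (median 11.64) and in LAD2 from 10.09 to 11.48 (median 11.10). The HAD2/LAD2 difference, 0.55 ± 0.40, had an adjusted p of 0.621, and the other Cck differences lay between -0.25 and 0.37. The last of these was in P/NP, where Cck differed by 0.18 ± 0.31 without P 10 and NP 8. The receptor gene Cckbr differed by 0.13 ± 0.20 in P/NP and by 0.32 ± 0.20 there without P 10 and NP 8, and its line means in AA, ANA, sP and sNP were below the floor.

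Nts, the neurotensin precursor, had its widest difference in P/NP, 0.83 ± 0.43 (adjusted p = 0.793). P animals ran from 8.0 to 11.58 (median 10.44) and NP animals from 5.07 to 11.92 (median 10.16). Without P 10 and NP 8 the difference was 0.19 ± 0.39. In the other 4 pairs it lay between -0.35 and 0.28. Ntsr1, the receptor of dopamine neurons, differed by 0.25 ± 0.26 in P/NP and by -0.07 to 0.12 in the other pairs. Ntsr2, found largely in glia, differed by -0.16 to 0.13 over the 5 pairs, and its P/NP value turned from 0.13 ± 0.10 to -0.00058 ± 0.097 without P 10 and NP 8.

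**Figure D4:**
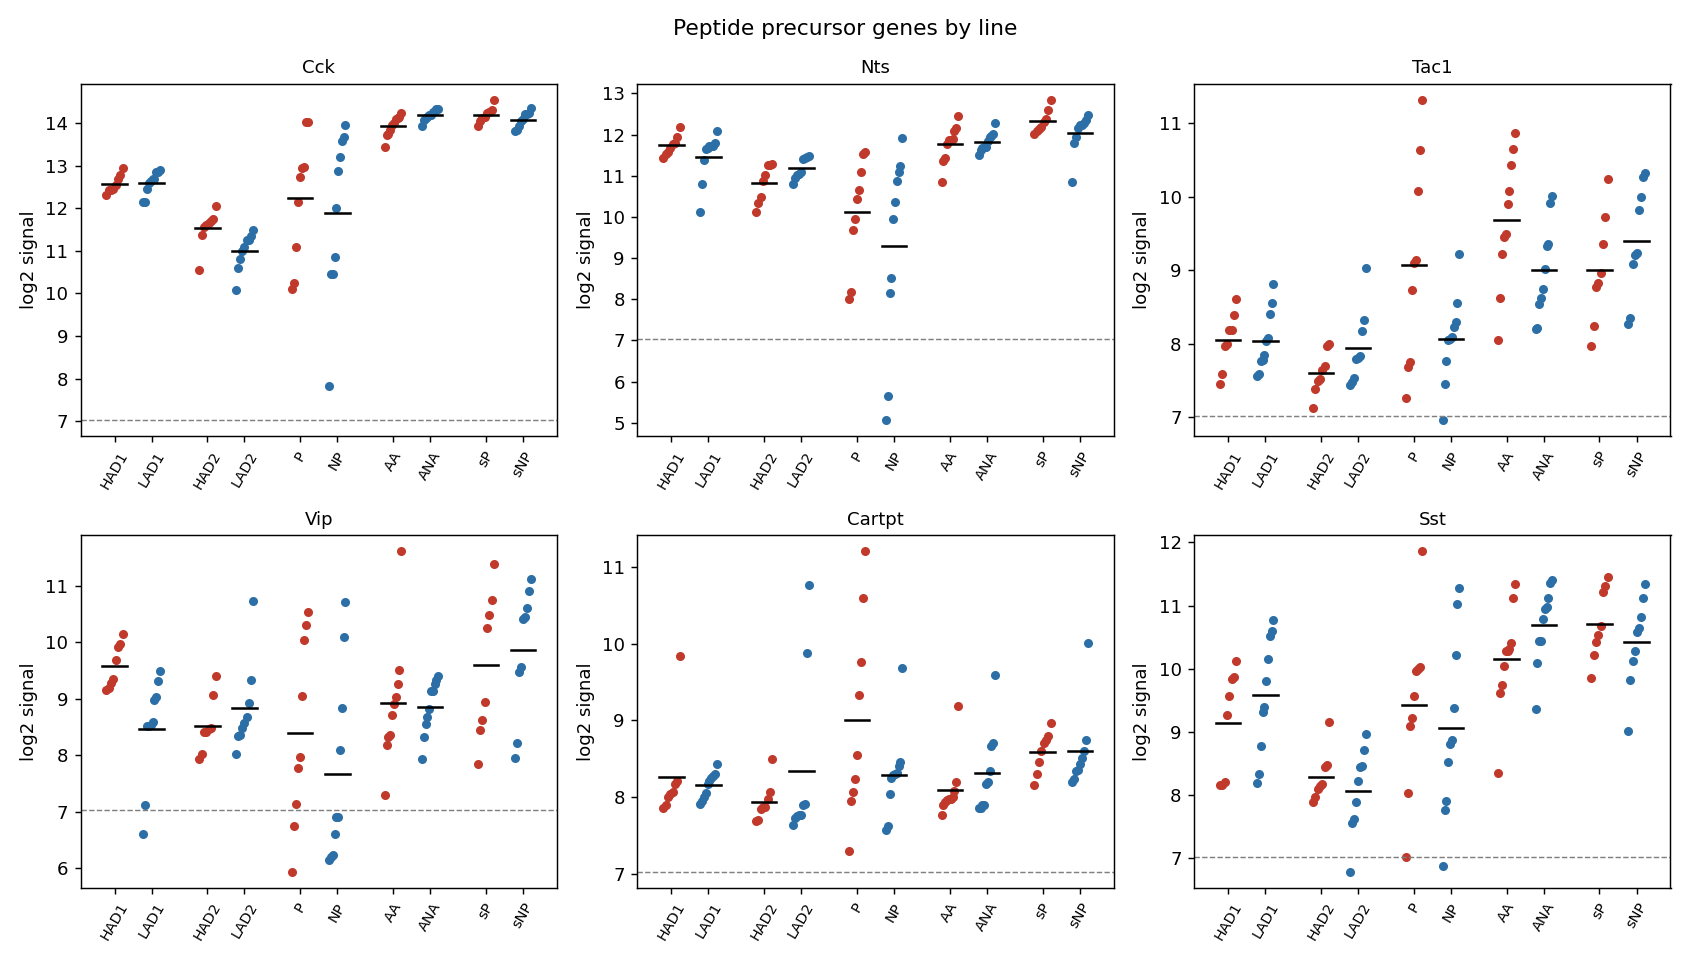
Log2 signals (vertical axes, each with its own range) of 6 peptide precursor genes on each array by line (horizontal axes). Points are animals, red for high- and blue for low-drinking lines, bars are line means and the dashed line is the floor of 7.02. P and NP animals spread more widely than animals of the other pairs in Cck and Nts, and single animals stand far above their line in Cartpt.

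Tac1 encodes substance P and neurokinin A, and Tacr1 and Tacr3 encode tachykinin receptors. AA animals ran from 8.06 to 10.86 (median 9.69) for Tac1 and ANA animals from 8.21 to 10.01 (median 8.88). P animals ran from 7.26 to 11.32 (median 9.10) and NP animals from 6.97 to 9.23 (median 8.08). Tac1 differences were 0.68 ± 0.32 in AA/ANA (adjusted p = 0.343 in limma) and 1.01 ± 0.33 in P/NP (adjusted p = 0.717), while in sP/sNP and HAD2/LAD2 they were -0.39 ± 0.35 and -0.33 ± 0.35. Without P 10 and NP 8 the P/NP difference was 0.69 ± 0.33. The F test for dependence on the pair gave an adjusted p of 0.128. Tacr1 differed by -0.21 to 0.21 over the pairs, with both means below the floor in sP/sNP, and its P/NP value was 0.18 ± 0.13 with all arrays and -0.04 ± 0.097 without P 10 and NP 8. Tacr3 differed by at most 0.40 ± 0.36, in P/NP, where it was 0.18 ± 0.34 without those arrays.

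Galanin, a peptide of many monoamine neurons, was near the floor in several lines and below it in HAD2, LAD2 and NP. Gal differences lay between -0.18 ± 0.33 in sP/sNP and 0.23 ± 0.31 in P/NP, and the P/NP value was -0.09 ± 0.31 without P 10 and NP 8. Its receptor gene Galr2 differed by -0.08 to 0.12, and in P/NP without P 10 and NP 8 by 0.15 ± 0.19. Vip and Adcyap1 encode the related peptides VIP and PACAP. HAD1 animals ran from 9.16 to 10.15 (median 9.52) for Vip and LAD1 animals from 6.61 to 9.50 (median 8.56), a difference of 1.12 ± 0.51 with an adjusted p of 0.333. The LAD1 spread for Vip was wide (SD 0.921, n = 10) beside HAD1 (SD 0.391, n = 8). In the other pairs the Vip difference lay between -0.30 ± 0.53 and 0.72 ± 0.50. Adcyap1 differed by -0.23 ± 0.33 in HAD2/LAD2 to 0.21 ± 0.31 in P/NP, and the P/NP value was 0.51 ± 0.29 without P 10 and NP 8. Of their receptor genes, Adcyap1r1 differed by -0.15 to 0.13 and Vipr2 by -0.12 to 0.05 with all arrays.

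Among feeding and arousal peptides, Cartpt, the precursor of CART, differed by 0.71 ± 0.31 in P/NP with an adjusted p of 0.753, and by 0.51 ± 0.32 without P 10 and NP 8. P animals ran from 7.29 to 11.20 (median 8.54) and NP animals from 7.56 to 9.68 (median 8.29). In HAD2/LAD2 the Cartpt difference of -0.41 ± 0.33 came with LAD2 values from 7.63 to 10.76 around a median of 7.77, beside a HAD2 median of 7.87. Pmch, the precursor of melanin-concentrating hormone, differed by -0.25 ± 0.13 in AA/ANA, 8.11 against 8.37, with an adjusted p of 0.405. Hcrtr1 and Hcrtr2, the orexin receptors, had their widest differences in HAD2/LAD2 for Hcrtr1 (-0.24 ± 0.12, adjusted p = 0.321) and in P/NP for Hcrtr2 (0.25 ± 0.18).

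Avp, which encodes vasopressin, had its widest difference in HAD2/LAD2, -0.12 ± 0.11, and its line means in sP and sNP were below the floor. Grp, the gastrin-releasing peptide gene, differed by -0.31 ± 0.37 in HAD1/LAD1 to 0.37 ± 0.38 in HAD2/LAD2 with all arrays. Its P/NP difference was -0.29 ± 0.36, and -0.45 ± 0.37 without P 10 and NP 8. Trhr encodes the receptor of thyrotropin-releasing hormone, and its P/NP difference had the smallest unadjusted p of any member in that pair. P animals ran from 7.32 to 10.14 (median 8.74) and NP animals from 6.56 to 9.55 (median 8.08), a difference of 0.81 ± 0.24 with an unadjusted p of 0.000983 and an adjusted p of 0.717 in limma. Standard deviations of Trhr were 0.977 in P and 0.937 in NP, against 0.181 to 0.450 in the other lines. The standard error and p values from the shared spread are thus too small for Trhr in P/NP. Trhr differed by 0.54 ± 0.24 without P 10 and NP 8, by 0.26 ± 0.23 in AA/ANA and by -0.14 ± 0.25 in sP/sNP.

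The P/NP pair stood apart in spread and in sign. The median standard deviation of the 27 tested members was 0.674 in P and 0.631 in NP, where all genes had 0.169 and 0.171. In the other 8 lines it lay between 0.233 and 0.314, where all genes had 0.097 to 0.146. With 1 spread per gene shared by all lines, standard errors and p values of many members are too small in P/NP. In P/NP 24 members were higher and 3 lower in P, with a median difference of 0.18, while 45.2% of all genes were higher and their median was -0.0079. The split was 23 to 4 with quantile normalization over all arrays and with each array centred on its median, and 19 to 8 without P 10 and NP 8. In the other 4 pairs between 11 and 14 of the 27 members were higher. No member had the same sign in all 5 pairs, against 5.18% of all genes tested. The median size of a member's difference was above that of all genes in every pair, at 0.113 against 0.055 in HAD1/LAD1, 0.120 against 0.061 in HAD2/LAD2, 0.210 against 0.048 in P/NP, 0.125 against 0.054 in AA/ANA and 0.121 against 0.035 in sP/sNP. The members' spread within lines was also above that of all genes in every line, so these sizes are not read as larger line effects.

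In arrays P 10 and NP 8 the mean of the 14 dopamine neuron markers was 7.52 and 8.22. It ran from 9.07 to 11.35 in the other 17 arrays of their pair. Not every marker was low. Drd2 in P 10, at 10.22 (8.69 to 11.69), lay within the range of the others. So did Foxa2 (10.81), Ret (12.37), Pitx3, Foxa1 and Gucy2c in NP 8. Th was 9.12 in P 10 and 8.23 in NP 8, and 11.38 to 14.95 in the other 17 arrays, and the dopamine transporter gene Slc6a3 was 8.45 and 7.98, against 11.42 to 14.76. Members moved in both directions in P 10. Of the 27 tested members, 7 lay above and 5 below all 17 other arrays there. Of the 11082 genes tested, 2258 lay above and 3042 below (47.8% outside). In NP 8, 2 tested members lay above and 12 below, and 2117 genes lay above and 2177 below (38.7% outside). With the members below the floor included, 36 in all, the counts were 11 above and 5 below in P 10 and 2 and 13 in NP 8.

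In P 10 the neurokinin B gene Tac3 was at 11.59, and the other 17 arrays ran from 5.79 to 6.74. Tac1 was at 11.32 (others 6.97 to 10.63), Tacr1 at 8.99 (6.84 to 7.62), Sst at 11.86 (7.01 to 11.28), Sstr2 at 8.62 (6.22 to 8.01) and Gal at 8.94 (6.04 to 8.68). Cck was at 10.10 and Adcyap1 at 6.33, both below the others. P 10 thus had the highest values of Tac1, Tac3, Tacr1 and Sst, while Tacr3 (8.44) lay within the range of the others. In NP 8, where Th was lower still, Tac1 (7.77) and Tac3 (6.06) lay within the range of the others and Sst (6.88) below it. P 10 also had Chat at 9.47 (others 5.17 to 5.82), Slc5a7 at 11.40 (5.16 to 7.84) and Slc18a3 at 7.65 (5.30 to 5.67). The remaining cholinergic and oculomotor markers, Phox2a at 5.22 (5.14 to 5.47) and Chrnb4 at 5.14 (4.97 to 5.73), lay within the range. The mean of the 3 GABA neuron markers in P 10 was 12.81 (10.15 to 11.90). The hypothalamic and mammillary list, with no gene of 7 above the floor in any line mean, was at 5.55 in P 10 (5.12 to 5.39). In NP 8 that list was at 5.43, also above the others.

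NP 8 had low values of many members, among them peptides and receptors of dopamine neurons. Cck was at 7.81 (others 10.24 to 14.04), Nts at 5.07 (5.64 to 11.92), Ntsr1 at 7.34 (lowest of the others 7.82), and Tacr3 at 5.93 (6.97 to 11.53). Avp, at 7.84, and Mc4r, at 8.14, were the 2 members above all others. The part of the dissected tissue in the members' P/NP values was not tested.

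**Figure D5:**
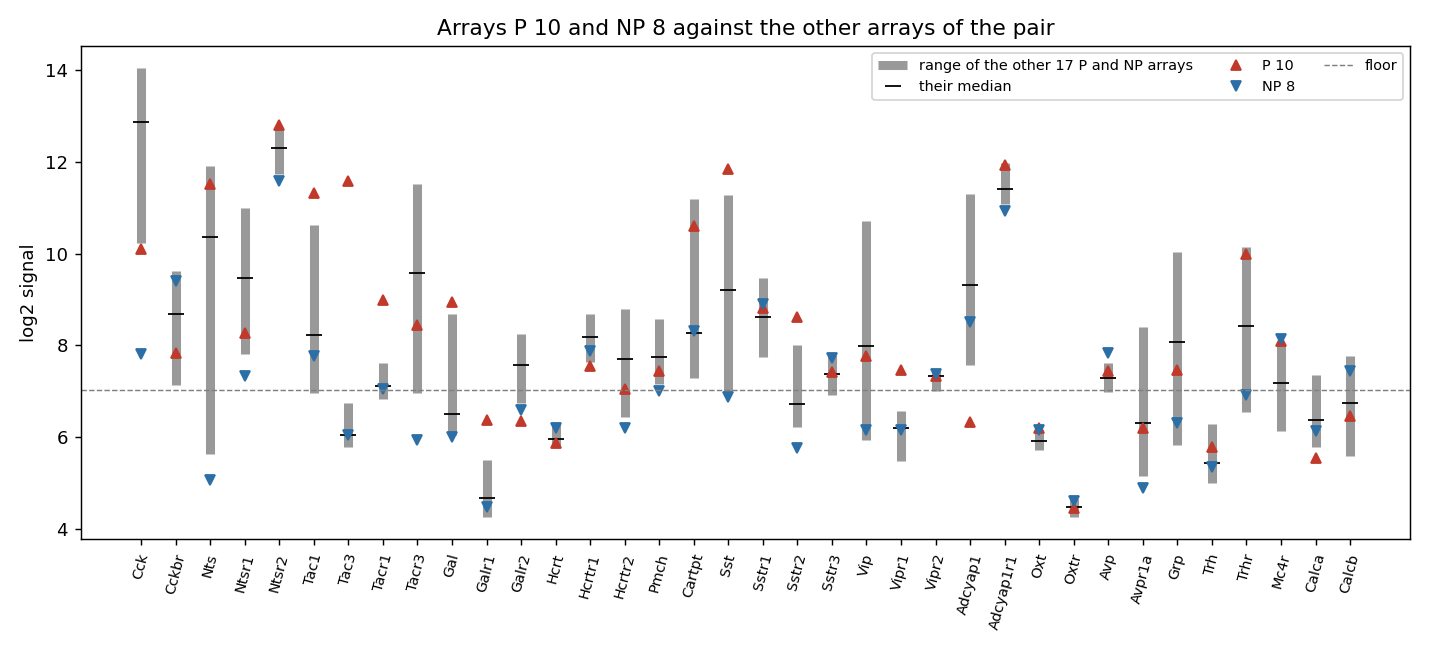
Log2 signal (vertical axis) of the 36 measured members (horizontal axis) in P 10 (red triangles) and NP 8 (blue triangles). Grey bars span the other 17 P and NP arrays, black dashes are their medians and the dashed line is the floor of 7.02. Tac3 in P 10, at 11.59, and Cck in NP 8, at 7.81, stand clear of the range.

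Without P 10 and NP 8, limma called 0 members and 0 genes in P/NP, and 3 members (Trhr, Tac1 and Sstr3) and 1.97% of all genes had an unadjusted p under 0.05. The arrays were also weighted by their residual spread, with weights from 0.0921 (P 10) to 2.26 (NP 5) in this pair. That moved the count from 0 to 15 of the 27 tested members and from 0 to 1500 of the 11082 genes tested. Weights of NP 10, NP 9 and NP 2 were 0.126, 0.153 and 0.184. Under these weights 14 members were called higher and 1 lower in P, among them Trhr (1.16 ± 0.22), Cck (1.28 ± 0.29) and Vip (1.65 ± 0.47). The members' P/NP calls thus depended on how arrays were weighted, and the cause was not tested.

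Genes that make, cut and read peptides were described from lists alongside the members. Of the 24 related ligand and receptor genes with a probe set, 10 were tested. In HAD1/LAD1 1 of them was called, Mrap2, an accessory protein of melanocortin receptors, lower in HAD1 with a difference of -0.34 ± 0.09 (adjusted p = 0.00896, and 0.265 with the pair fitted alone), and in AA/ANA 1 was called, Ramp1. Of 23 peptide processing and dense-core vesicle genes tested, 1 was called. Ptprn2, a membrane protein of dense-core vesicles, was 0.51 ± 0.08 higher in HAD2 than in LAD2 (adjusted p = 4.66e-06), and its difference lay between 0.45 and 0.55 in all 28 alternatives. The convertases, carboxypeptidases and granins of that list, such as Pcsk1, Cpe and Scg2, were not called in any pair.

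Of 13 peptide-degrading enzymes tested, Ace, the angiotensin-converting enzyme, was lower in AA than in ANA, with a difference of -0.34 ± 0.08 (adjusted p = 0.00408, and 0.414 with its probe sets averaged). Dpp7, a dipeptidyl peptidase, was 0.17 ± 0.05 higher in HAD2 (adjusted p = 0.0376), a call lost in 12 of 28 alternatives. None of the 17 tested G protein and second messenger genes and none of the 12 tested dopamine neuron markers was called by limma in any pair. At an unadjusted p under 0.05 the first list had 0 to 2 genes and the second 0 to 1 in a pair. Their median differences were 0.013 and -0.088 in AA/ANA and 0.067 and 0.137 in HAD2/LAD2, where the medians of all genes were -0.0027 and 0.016.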

How the data were processed

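Ventral tegmental area RNA of 91 rats was measured on 1 array each. Per the labels' protocols, total RNA was amplified in 2 cycles from 25 ng. The authors deposited RMA log2 signals of 31099 probe sets, per the submitters' processing notes, with no statement of RMA's version or of which arrays were run together. Every value column matched a sample. Of the probe sets, 20826 had 1 gene symbol in the platform annotation, and all 36 member gene IDs matched RefSeq's GRCr8 gene list.

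Of a gene's single-gene probe sets, the brightest over all arrays stood for it. A gene was tested if a line mean reached the 40th percentile of all values, 7.02. All arrays entered 1 limma fit of 10 line means (81 residual degrees of freedom), with 2-sided contrasts of high minus low line, their average, and a moderated F test (4 numerator degrees of freedom) for dependence on the pair. P/NP was also fitted without P 10 and NP 8. Levels were not compared between pairs. Arrays' distributions were clustered and cut into 5 sets. Outlying arrays were found with Dixon's ratio at 95%. The number of arrays limits the precision. The members, gene lists and tests were chosen with earlier results of these data known. Genes given full statistics were the called members and Cck, Nts, Tac1, Gal, Cartpt, Sst, Vip, Adcyap1, Oxt, Avp, Hcrt, Pmch, Trh, Ntsr1 and Oxtr, whatever their result. Serotonin, cortical, astrocyte and meningeal markers had no gene called in any pair. Mobp of the oligodendrocyte list was 0.30 ± 0.08 higher in HAD1 than in LAD1 (0.08 with an adjusted p of 0.917 in limma with its probe sets averaged), and Cx3cr1 of the microglia list was lower there (-0.33 ± 0.07). Alternatives were other floors, normalizations, priors, weights and probe set choices, each pair alone, a replicate block, a 1.5-fold threshold and each array left out. The fit was tested on simulated data. Versions were R 4.3.3, limma 3.58.1, data.table (version 1.17.8), Python 3.11.15, numpy 2.4.6, pandas 2.3.3 and matplotlib 3.10.9.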

Additional observations from a re-analysis of the deposited data

Results flagged for a closer look

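In 44 of the 360 combinations of a measured member and a line (12.2%), 1 animal stood far from the rest of its line by Dixon's ratio. Chance alone marks about 1 in 20 such groups (5%) where values are normally distributed. The share over all genes of these arrays was not computed, so the 12.2% is not read as a trait of the members. Values below are log2 signals, with the range of the line's other animals in parentheses, and no cause was tested.

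P 10 was marked for 5 members, the most of any animal. It was highest in P for Tac3 at 11.59 (5.87 to 6.19), Tacr1 at 8.99 (6.96 to 7.32), Galr1 at 6.38 (4.37 to 5.07), Sstr2 at 8.62 (6.22 to 7.21) and Vipr1 at 7.47 (5.76 to 6.38). AA 1 was highest in AA for Cartpt at 9.18 (7.76 to 8.19), Vip at 11.61 (7.30 to 9.51), Vipr1 at 6.69 (5.56 to 6.10) and Avpr1a at 7.81 (6.01 to 6.48). AA 1 was also the array whose distribution lay with the P and NP arrays.

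Cartpt had a high animal in each of 5 lines. Besides AA 1 these were HAD1 23 at 9.84 (7.85 to 8.20), NP 5 at 9.68 (7.56 to 8.46), ANA 18 at 9.58 (7.86 to 8.71) and sNP 4 at 10.01 (8.19 to 8.74). Vip was high in LAD2 20 at 10.74 (8.03 to 9.34), and the same animal was highest in LAD2 for the receptors Vipr2 at 9.03 (8.12 to 8.45) and Adcyap1r1 at 12.54 (12.17 to 12.32).

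HAD2 5 was lowest in HAD2 for Cck at 10.54, Ntsr2 at 11.28 and Tacr3 at 8.87. LAD2 17 was lowest in LAD2 for Cckbr at 6.48 and Ntsr1 at 7.44. sNP 9 was lowest in sNP for Nts at 10.84 and Tacr1 at 6.19 and highest for Ntsr2 at 13.16, and sNP 4 was lowest for Grp at 8.26. ANA 20 was highest in ANA for Galr2 at 9.75 and lowest for Hcrtr1 at 7.78 and Avp at 6.42, and AA 19 was lowest in AA for Avp at 6.51. Both of these lay outside the set of the other AA and ANA arrays.

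Cckbr was high in HAD1 23 at 7.88 and in ANA 14 at 7.16, and Calcb in ANA 14 at 6.38. Other high animals were NP 9 for Tac3 at 6.74, HAD1 22 for Galr1 at 6.0, HAD1 25 for Hcrtr1 at 8.50, HAD2 9 for Sst at 9.15, ANA 16 for Vipr1 at 6.65, LAD1 32 for Avp at 7.78, HAD1 27 for Avpr1a at 7.23 and sP 2 for Mc4r at 6.35. Other low animals were NP 4 for Vipr1 at 5.48, sP 2 for Adcyap1r1 at 11.89, LAD1 38 for Oxt at 5.66 and ANA 10 for Oxtr at 4.51.

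By the moderated F test the line difference of Calca depended on the pair, with F = 6.59. The Calca line means in P, NP, sP and sNP lay below the floor, and the test used the spread shared over all lines.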

How the results depend on the processing

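No called difference changed sign under any alternative run. Calca in AA/ANA was called in 31 of 32 alternatives, with differences from 0.42 to 1.4, and lost with the pair fitted alone. Apart from the fits of this pair alone, the alternatives shared 1 spread per gene over all lines. Calca varied more in AA (SD 0.914) than in any other line, so 31 of 32 is not a count of separate checks. Sstr3 in HAD2/LAD2 was called in 21 of 27. With a floor at the 60th percentile (8.58), which left both genes out of the test, 0 members were called in HAD2/LAD2, in AA/ANA and for dependence on the pair. With each pair fitted alone, HAD1/LAD1 had 1 member called (Sstr2), HAD2/LAD2 had 0, and AA/ANA had 0 members and 153 genes. With array weights, 742 of the 11082 genes and 1 of the 27 members tested were called in HAD1/LAD1. Of the same totals, 971 and 1 were called in HAD2/LAD2, 1500 and 15 in P/NP, and 981 and 4 in AA/ANA. The counts were 3 and 0 in sP/sNP, 911 and 3 on average, and 2903 and 16 for dependence on the pair. The cause was not tested. At 1.5-fold or more, 70, 105 and 50 genes remained called in HAD1/LAD1, HAD2/LAD2 and AA/ANA and 3 on average, and 0 members in HAD2/LAD2. Leaving out each array in turn gave 361 to 580 genes and 0 members in HAD1/LAD1, 516 to 671 genes and 0 to 1 member in HAD2/LAD2, 239 to 485 genes and 1 member in AA/ANA, and 0 of both in P/NP and sP/sNP. Animal numbers are shared within P/NP (9 numbers) and sP/sNP (8), and same-numbered animals correlated over 0.1 in 6 and 1 of these (range -0.739 to 0.733 and -0.371 to 0.291), not in all, so the numbers were not taken to pair the animals, and the number of pairs best matched by number was 1 and 0. A replicate block on those numbers called 0 members and 0 genes in either pair. In P/NP, 5 members turned without P 10 and NP 8, Gal from 0.23 to -0.09, Sst from 0.35 to -0.20, Sstr2 from 0.23 to -0.08, Tacr1 from 0.18 to -0.04 and Ntsr2 from 0.13 to -0.00058, and Cck from 0.37 to -0.09 without NP 8 alone, none of them called. Signal over background limits the 9 members below the floor and the 8 tested members with some line mean below it, Calca, Mc4r, Sstr3, Cckbr, Gal, Tacr1, Avp and Sstr2.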
